A study of Mus musculus with 45 samples.

Results

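TFH cells from S1PR4-/- mice were compared with TFH cells from WT mice by RNA-sequencing. The 12 libraries are those whose labels name TFH cells of either genotype, 6 WT and 6 S1PR4-/-, out of 45 in the series. The comparison addresses how TFH cells that form without this receptor differ in gene expression from those of WT mice after the same immunization.

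All mice received 50 µg OVA and 5 µg LPS in 20 µl of an IFA emulsion in the hind footpad, and cells were taken from the popliteal lymph node that drains it. TFH cells were sorted on day 6 as TCRβ+ CD4+ cells with PD1 and CXCR5. The S1PR4-/- mice carry the S1pr4tm1Dgen allele on the B6.129P2 background, backcrossed to C57BL/6 for at least 10 generations, and their WT littermates served as controls. Both sexes were used, at 8 to 12 weeks of age. The deletion is in every cell of the mouse, so an effect within TFH cells and an effect of other S1PR4-/- cells on them cannot be told apart. The labels do not say that each library is a separate mouse. The methods of the study give 6 mice of each genotype.

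Sphingosine-1-phosphate (S1P) is a lipid that is abundant in blood and lymph and scarce inside lymphoid tissue, and lymphocytes read this gradient through G protein-coupled receptors. S1PR1 draws T cells out of the lymph node, its gene is switched on by the factor KLF2, and both are held low in TFH cells, which stay in the follicle. TFH cells help GC B cells with CD40 ligand, IL-21 and IL-4 under the transcriptional repressor Bcl6, and they divide during the first week after immunization. S1PR4 is found mainly on blood and immune cells, and its part in TFH cells is less well described than that of S1PR1.

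Sequencing gave 32797505 to 43668027 expected counts per library in WT (median 35859360) and 29280430 to 45548215 in S1PR4-/- samples (median 39387157). S1pr4 (ENSMUSG00000044199.6, chr10:81497747-81500132) had between 1811 and 3170 counts in the WT libraries and between 10 and 40 in the S1PR4-/- libraries, so each library carried the genotype of its label. Scaled to library size (CPM), it ran from 52.5 to 72.9 CPM (median 65.9) in WT and from 0.329 to 1.01 CPM (median 0.507) in S1PR4-/- samples. The log2 fold change was -6.77 (SE 0.18, FDR = 6.64e-12). Coordinates are those of GENCODE M21 on mm10.

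Markers of T cells were present in every library, with 15 of 15 tested, summed levels of 12220 to 14904 CPM in WT and 10752 to 13372 CPM in S1PR4-/- samples, and Lck the most abundant. The 10 TFH markers summed to 3315 to 3929 CPM in WT and 2877 to 4387 CPM in S1PR4-/- samples, with Cxcr5 the most abundant. CD8 T cell and NK cell markers (8 of 10 tested, Klrb1c the most abundant), dendritic cell markers (9 of 10, Ccr7) and stromal markers (4 of 12, Pecam1, with Emcn at 0) were also measured. Macrophage, monocyte and neutrophil markers (11 of 15 tested, Cst3 the most abundant) summed to 99.6 to 164 CPM in WT and 80.7 to 583 CPM in S1PR4-/- samples, the highest in S1PR4-/- sample 6. No red cell or platelet marker was tested by edgeR, since all 8 were under its low-count filter, and Ppbp was at 0.

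The genotypes also differed in sex and in B lineage RNA. By Xist and Ddx3y, 5 WT libraries were female and WT sample 3 was male, while S1PR4-/- samples 4 and 5 were female and the other 4 male. All 20 B cell markers were tested and 19 had a negative log2 fold change (median -1.88), with 1, Blnk, past the threshold. They summed to 492 to 980 CPM in WT and 407 to 667 CPM in S1PR4-/- samples, with Cd37 the most abundant. Of 23 plasma cell markers, 22 were tested, 22 had a negative log2 fold change (median -2.21) and 8 were lower. Their sums were 2180 to 4967 CPM in WT and 1516 to 1910 CPM in S1PR4-/- samples, with Ighm the most abundant. Of 10 GC B cell markers, 6 were tested and 5 lay under 1 CPM. The mean log2 CPM of the plasma cell markers was 4.13 to 5.80 in WT and 0.82 to 3.22 in S1PR4-/- samples, without overlap. The same mean for B cell markers was 2.05 to 4.90 and 0.41 to 3.96, with S1PR4-/- sample 3 inside the WT range. Set against WT non-GC B cells, the B cell markers stood at 0.231% to 2.63% of their level in WT and at 0.0718% to 0.957% in S1PR4-/- samples. In bulk samples, fewer cells of a type and less RNA per cell cannot be told apart. Genes within 10 Mb of S1pr4 on chromosome 10, which lie beside the changed allele, and B lineage genes were counted apart from all others. A gene counted as B lineage if it was an immunoglobulin gene, a marker of B or plasma cells, or at least 4 times higher in WT B cells than in the TFH libraries. The part of sex and of B lineage RNA in the other differences was not tested beyond the fits given with the counts.

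Of 13495 genes tested, 67 (0.496%) differed by more than 1.5-fold with an FDR under 0.05 in edgeR's quasi-likelihood test. Of these, 8 lay in the chromosome 10 window, 1 higher and 7 lower in S1PR4-/- TFH cells, and 28 were B lineage genes, 1 higher and 27 lower. The remaining 31 of 12355 genes lay beyond both, 11 higher and 20 lower. By FDR alone 74 genes were higher (0.548% of those tested) and 116 lower (0.860%). Beyond the window and the B lineage these were 71 higher genes with a median log2 fold change of 0.40 and 70 lower genes with a median of -0.50. The differences were small, down to 1.15-fold, and in 83 of these 141 genes the 6 WT and 6 S1PR4-/- values did not overlap. An unadjusted p under 0.05 was reached by 2586 genes, 19.2% of those tested, and the counts at that threshold in the lists below stand beside this share. Over all tested genes, 109 had every S1PR4-/- value above every WT value (0.808%) and 148 the reverse (1.10%).

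In the plot of all tested genes, the lower B lineage genes that passed spread from -0.46 (Arhgef18) to -6.19 (Igkv10-96). Genes beyond the window and the B lineage that passed lay on both sides, with medians of 0.40 and -0.50. Some of them lay farther out, such as Prr7 (-2.02), Gcg (1.97), Gm9855 and Tdg-ps. Genes on the higher side included Mcm6, Gins2, E2f8 and Bub1b, and those on the lower side S1pr1, Klf2, Itgb7, Tob1, Tnfrsf25, Traf1 and Ier5l.

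**Figure D1:**
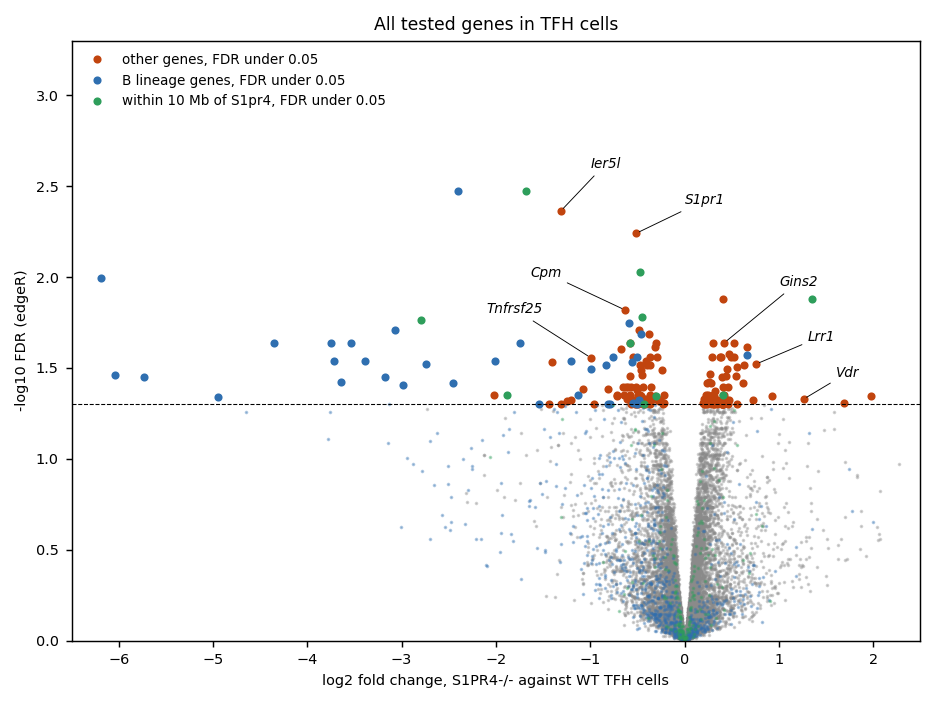
Log2 fold change (S1PR4-/- against WT TFH cells, 6 samples each) against -log10 FDR for every tested gene, with genes past an FDR of 0.05 (dashed line) as large points colored by class. S1pr4, Tdg, Gm32687, Gm3055, Gm9855, Tdg-ps, Cd300ld, Adgre4 and Csf3r lie outside the axes; S1pr1 (-0.51) and Ier5l (-1.31) stand apart among the other genes.

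How many genes passed depended on the samples and the model. With the B and plasma cell marker levels as covariates, 4 genes beyond the window and the B lineage passed the FDR, 2 of them among the 141, and without WT samples 1, 2 and 3 and S1PR4-/- sample 3, the libraries with the highest B cell marker levels, 2 passed. In both fits the only named genes to keep an FDR under 0.05 were S1pr4, Gm9855 and Tdg-ps. Gm9855 and Tdg-ps are processed copies of Tdg, a gene in the chromosome 10 window, and their values are uncertain. No other gene of the 141 kept its FDR in either fit. With sex as a covariate 605 passed, including 127 of the 141. Without S1PR4-/- sample 1, 2, 3, 4, 5 or 6 the 141 became 9, 231, 251, 38, 18 or 24, and without WT sample 1, 2, 3, 4, 5 or 6 they became 53, 9, 13, 174, 8 or 286. The 67 genes became 15, 91, 117, 44, 19 or 30 without each S1PR4-/- sample in turn and 54, 15, 25, 73, 15 or 116 without each WT sample, and the 31 became 5, 49, 43, 19, 6 or 9 and 18, 4, 5, 34, 4 or 53 in the same order. In 3379 pairs of 1 of the 141 genes and 1 alternative fit, the sign of the log2 fold change turned in 0. The 141 were chosen by their FDR in the same libraries, so a turned sign was unlikely and this count does not test their direction. The 6 genes past the FDR with any 1 library left out were Cpm, Fam111a, S1pr1, Tdg-ps, Gm9855 and Ier5l, of which Fam111a, a restriction factor of viral replication that also acts at replication forks, was chosen after its values were seen. Of these, Cpm and Gm9855 also lie on chromosome 10, outside the 10 Mb window.

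Among the S1P receptors, S1pr1 fell in S1PR4-/- TFH cells. S1pr1 (ENSMUSG00000045092.8, chr3:115710433-115715072) ran from 324 to 427 CPM (median 397) in WT and from 246 to 296 CPM (median 273) in S1PR4-/- samples. Every S1PR4-/- sample was below every WT sample. The log2 fold change was -0.51 (SE 0.07, FDR = 0.00575), and it passed with any 1 of the 12 libraries left out. It did not pass with the B and plasma cell marker levels as covariates (-0.46, FDR = 0.283) or without the 4 libraries of highest B cell marker level (-0.47, FDR = 0.162). S1pr1 is lower in TFH than in non-TFH cells of WT mice, with a log2 difference of -1.74. At the measured level of B cell markers, RNA from non-GC B cells would carry S1pr1 at 6.29 CPM in WT and 1.37 CPM in S1PR4-/- samples. This estimate leaves out plasma cell RNA, which differed more between the genotypes and could not be estimated in the same way. Of the 5 receptor genes, 4 were tested, among them the deleted S1pr4 itself (-6.77). The median of their log2 fold changes was -0.23, between -0.32 and -0.02 over the fits run, beside -0.00 for all tested genes. As this median includes S1pr4, it does not describe the other receptors alone. Beside S1pr1 (-0.51), the 2 others tested, S1pr2 (0.06) and S1pr3 (0.20), counted as B lineage by their level and did not pass.

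Of 25 genes of lymph node exit and homing, 3 fell and none rose, 18 had a negative log2 fold change, 10 had an unadjusted p under 0.05 (40.0%), and their median was -0.20. The 3 were S1pr1, Klf2 and Itgb7. Itgb7, the β7 integrin chain by which lymphocytes enter gut tissue and one of the targets ascribed to KLF2, ran from 928 to 1203 CPM (median 1148) in WT and from 672 to 927 CPM (median 823) in S1PR4-/- samples. Its groups did not overlap, and its log2 fold change was -0.44 (SE 0.09, FDR = 0.0401). Klf2 itself, which drives S1pr1 and keeps T cells quiescent, ran from 126 to 233 CPM (median 178) in WT and from 90.8 to 135 CPM (median 127) in S1PR4-/- samples. WT sample 6, the lowest of its group, was within the S1PR4-/- range. The log2 fold change of Klf2 was -0.57 (SE 0.13, FDR = 0.0499), and Klf2 kept an FDR under 0.05 in 2 of the 12 fits with 1 library left out. RNA from non-GC B cells at the measured marker level would carry Itgb7 at 6.37 CPM in WT and 1.39 CPM in S1PR4-/- samples, and Klf2 at 6.55 CPM in WT and 1.43 CPM in S1PR4-/- samples. Plasma cell RNA is not covered by these values. Selplg, the P-selectin ligand, fell too (-0.49, FDR = 0.0447) and was chosen after its values were seen. Ccr7, a receptor for entry into the node, had a log2 fold change of -0.47 (FDR = 0.148), also chosen so. The mean log2 CPM of the list lay below the lowest WT value (6.35) in 5 of 6 S1PR4-/- samples. It was lowest in S1PR4-/- samples 3 (5.85) and 6 (6.14), while samples 1 (6.29) and 2 (6.32) lay close to that WT value. The list median was between -0.34 and -0.17 over the fits run.

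The window at the start of Itgb7 is shown because 3 copies of CCACCC, the core letters bound by KLF factors, lie in it. It covers chr15:102231886-102232185 on the minus strand of GRCm38.p6 in RefSeq, across the transcription start, and capitals mark the motif on either strand.
Itgb7: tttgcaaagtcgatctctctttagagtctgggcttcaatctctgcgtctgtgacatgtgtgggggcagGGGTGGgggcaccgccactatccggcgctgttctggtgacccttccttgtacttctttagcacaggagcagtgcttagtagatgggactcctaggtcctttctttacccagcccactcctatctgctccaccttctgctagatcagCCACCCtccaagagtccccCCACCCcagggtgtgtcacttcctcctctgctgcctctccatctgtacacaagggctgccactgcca
CCACCC was in 31.5% of all 32851 such windows, in 36.4% of those of tested genes and in 25 of 56 windows (44.6%) of the genes beyond the chromosome 10 window and the B lineage that fell, beside 29 of 71 (40.8%) of those that rose. None of the 3 copies overlapped another motif searched, and the windows of Klf2 and Tob1 had 1 copy each. A window was found for 78 of the 95 genes named by rule, and none for S1pr1. A match is a description of letters, not of a bound site.

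DNA replication genes had the highest median of the 25 lists in the edgeR fit without covariates. The mitosis median was higher with sex as a covariate (0.47 against 0.45) and with the marker levels as covariates (0.26 against 0.25). Of 56, all tested, 7 rose and none fell, 55 had a positive log2 fold change, 50 had an unadjusted p under 0.05 (89.3%), and the median was 0.35 beside -0.00 for all tested genes. The 7 were Lrr1, Gins2, Mcm6, Chaf1a, Pola2, Rrm1 and Dnmt1. Mcm6 (ENSMUSG00000026355.11, chr1:128331590-128359664), a subunit of the helicase that opens DNA at replication forks, ran from 667 to 859.5 CPM (median 754) in WT and from 894 to 1071 CPM (median 965) in S1PR4-/- samples. The groups did not overlap. Its log2 fold change was 0.37 (SE 0.07, FDR = 0.0274). Gins2, which holds that helicase together with CDC45, ran from 38.8 to 49.2 CPM (median 45.0) in WT and from 55.6 to 70.3 CPM (median 57.9) in S1PR4-/- samples, again without overlap, and had a log2 fold change of 0.42 (SE 0.07, FDR = 0.0230). Lrr1, which takes the helicase off chromatin when forks meet, had the largest difference of the 7, 0.76 (SE 0.15, FDR = 0.0301), running from 5.98 to 9.23 CPM (median 7.08) in WT and from 9.26 to 15.3 CPM (median 12.5) in S1PR4-/- samples. In Lrr1 too the groups did not overlap.

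The remaining members were enzymes and chaperones of DNA synthesis. Pola2, the second subunit of DNA polymerase α, rose without overlap (0.27, FDR = 0.0479). Chaf1a, which loads histones behind the fork, had a log2 fold change of 0.44, FDR = 0.0350. Rrm1, the large subunit of ribonucleotide reductase, had 0.40, FDR = 0.0499, and Dnmt1, which copies DNA methylation onto new strands, had 0.29, FDR = 0.0499. In these 3 genes the lowest S1PR4-/- sample lay within the WT range. Cdc7, the kinase that fires origins, and Hells, a chromatin remodeler, rose as well (0.40, FDR = 0.0354, and 0.45, FDR = 0.0476). Both were singled out after the values of the 141 genes were seen. The mean log2 CPM of the 56 genes ran from 6.27 to 6.63 in WT (median 6.37) and from 6.56 to 6.92 in S1PR4-/- samples (median 6.73). Of the S1PR4-/- samples, 5 lay above every WT sample, and sample 3 lay below WT samples 4 and 6 and above the other 4.

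Mitosis genes had a similar median with fewer calls. Of 61, 4 rose and none fell, 60 had a positive log2 fold change, 49 had an unadjusted p under 0.05 (80.3%), and the median was 0.33. The 4 were Bub1 and Bub1b, kinases of the spindle checkpoint, Nuf2, which ties the kinetochore to microtubules, and Ckap2l, a spindle protein. Bub1b ran from 165 to 236 CPM (median 186) in WT and from 217 to 292 CPM (median 260.1) in S1PR4-/- samples. S1PR4-/- sample 3 alone lay within the WT range. Its log2 fold change was 0.40 (SE 0.09, FDR = 0.0499). Those of Ckap2l, Bub1 and Nuf2 were 0.46, 0.43 and 0.40 (FDR = 0.0401, 0.0476 and 0.0499). Mki67, the common marker of cycling cells, chosen after its values were seen, had a log2 fold change of 0.13 (SE 0.09, FDR = 0.457) and did not pass. In 4 of 6 S1PR4-/- samples the mean log2 CPM of the mitosis list lay above every WT sample.

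**Figure D2:**
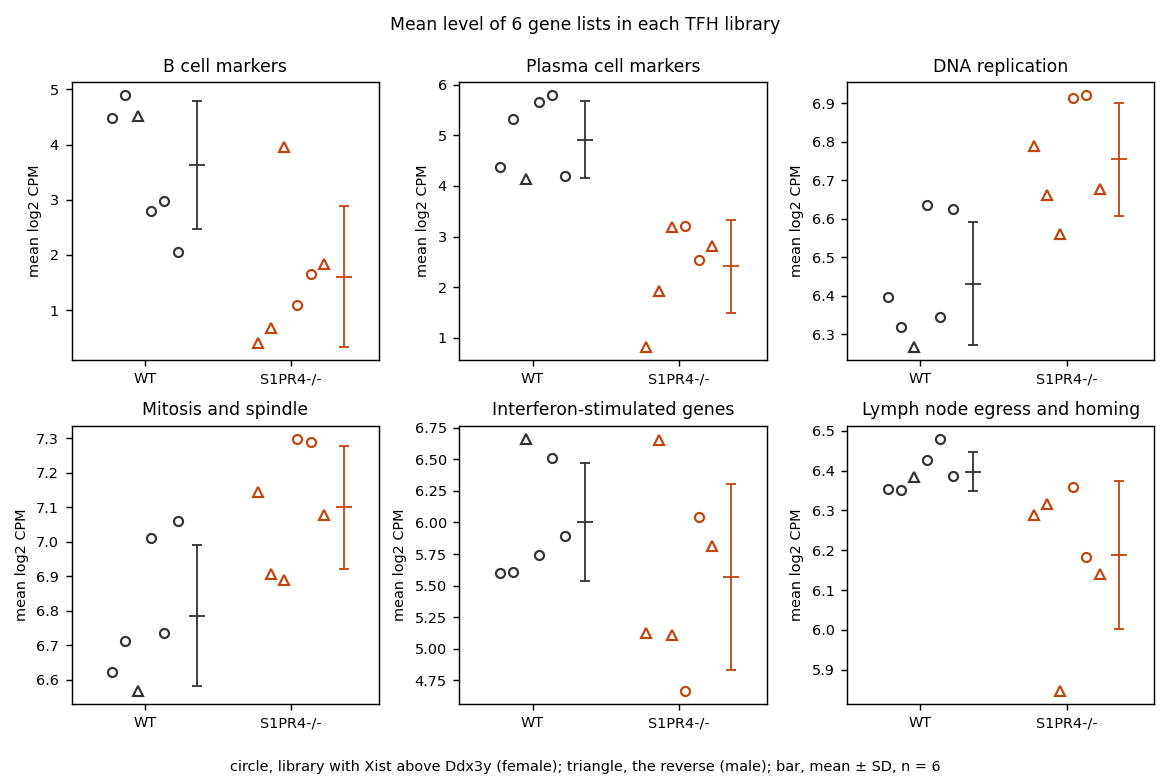
Mean log2 CPM of the tested members of 6 gene lists in each TFH library, with the mean and SD of 6 samples per genotype as bars. The DNA replication mean is above every WT sample in 5 of 6 S1PR4-/- samples, the plasma cell marker mean is below every WT sample in all 6, and the interferon-stimulated genes overlap.

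Genes of the step from G1 into S phase rose in part. Of 28, 4 rose and none fell, 23 had a positive log2 fold change, 16 had an unadjusted p under 0.05 (57.1%), and the median was 0.20. E2f7 and E2f8, the atypical E2F repressors that are made in S phase, rose by 0.41 (SE 0.09, FDR = 0.0470) and 0.47 (SE 0.09, FDR = 0.0266) on the log2 scale. E2f8 ran from 43.4 to 59.7 CPM (median 49.8) in WT and from 62.7 to 79.5 CPM (median 70.6) in S1PR4-/- samples. Neither gene overlapped between the groups. E2f6, another E2F repressor, rose by 0.27 (SE 0.05, FDR = 0.0341) without overlap, and Ccne1, the cyclin E1 that starts S phase, by 0.39 (SE 0.09, FDR = 0.0499) with overlap.

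The start windows of Mcm6, Dnmt1 and E2f7 are shown because each holds letters of the E2F motif, TTTGGCGC or TTTCCCGC, searched on both strands and set here in capitals. They cover chr1:128359656-128359955 (minus strand), chr9:20952574-20952873 (minus strand) and chr10:110745189-110745488 (plus strand) of GRCm38.p6 in RefSeq, the second being 1 of 3 windows of Dnmt1.
Mcm6: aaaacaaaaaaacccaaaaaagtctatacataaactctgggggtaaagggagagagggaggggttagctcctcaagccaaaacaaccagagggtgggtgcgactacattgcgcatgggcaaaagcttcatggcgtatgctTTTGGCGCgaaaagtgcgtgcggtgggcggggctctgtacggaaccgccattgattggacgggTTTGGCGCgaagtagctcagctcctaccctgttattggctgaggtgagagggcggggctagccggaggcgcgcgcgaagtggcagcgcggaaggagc
Dnmt1: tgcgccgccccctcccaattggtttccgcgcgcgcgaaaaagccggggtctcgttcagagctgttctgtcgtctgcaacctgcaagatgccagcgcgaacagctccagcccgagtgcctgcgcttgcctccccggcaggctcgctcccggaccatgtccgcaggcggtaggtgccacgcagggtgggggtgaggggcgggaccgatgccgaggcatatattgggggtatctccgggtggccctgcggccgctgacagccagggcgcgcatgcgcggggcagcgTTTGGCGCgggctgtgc
E2f7: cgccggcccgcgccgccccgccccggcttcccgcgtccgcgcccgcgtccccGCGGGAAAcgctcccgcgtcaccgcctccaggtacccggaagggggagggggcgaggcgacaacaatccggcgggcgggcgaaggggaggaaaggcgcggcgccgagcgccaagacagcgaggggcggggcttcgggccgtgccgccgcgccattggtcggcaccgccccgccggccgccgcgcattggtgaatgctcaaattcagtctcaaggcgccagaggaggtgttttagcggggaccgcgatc
Mcm6 had 2 copies and the others 1 each, none overlapping another motif searched. The motif was in 1.56% of all windows, in 2.94% of those of tested genes, and in 7 of 71 windows (9.86%) of the genes that rose and 3 of 56 (5.36%) of those that fell beyond the chromosome 10 window and the B lineage. For the replication, mitosis and G1 to S genes that rose it was in 3 of 16 (18.8%), the 3 windows shown. Among genes that fell, Ier5l, Fosl2 and Rab5c had 1 copy each. The NF-Y letters CCAAT were in 37.4% of all windows and in 10 of these 16.

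The counts of these 3 lists moved with the tool and the covariates. DESeq2 put 39, 29 and 11 of the replication, mitosis and G1 to S genes past its FDR and limma-voom 7, 4 and 4. With sex as a covariate 41, 45 and 10 passed, and with the B and plasma cell marker levels as covariates 0, 0 and 0 passed in edgeR. Over all the fits run the medians were positive, from 0.25 to 0.45, 0.23 to 0.47 and 0.17 to 0.27. In non-TFH cells the medians of the 3 lists were 0.11, 0.32 and 0.16.

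**Figure D3:**
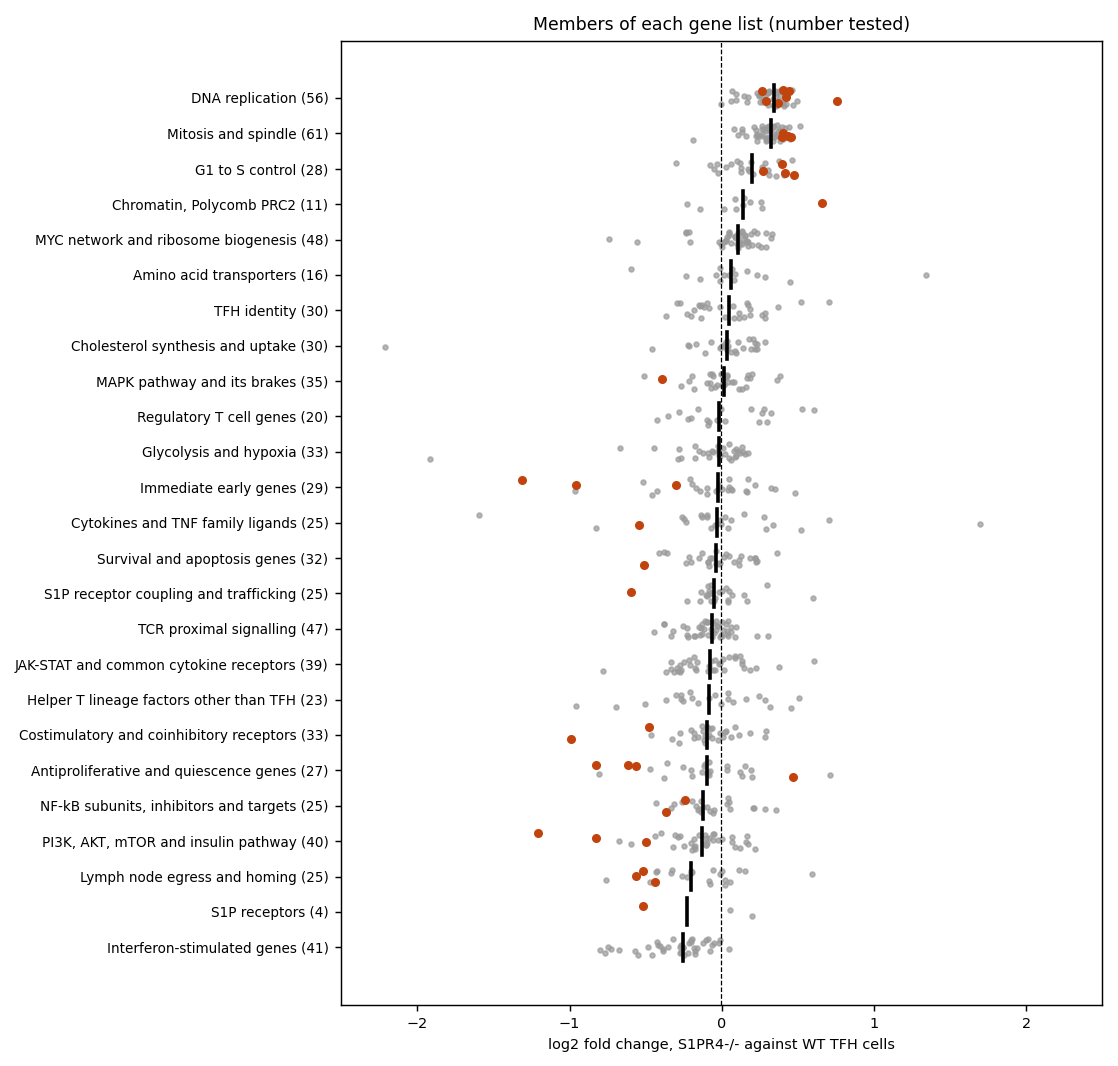
Log2 fold change of each tested member of 25 gene lists in TFH cells, with the list median as a black bar and members past an FDR of 0.05 in orange; S1pr4 lies outside the axis. The replication (0.35) and mitosis (0.33) medians are highest, and the interferon-stimulated genes (-0.26) have the lowest median with no member past the threshold.

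Antiproliferative and quiescence genes changed in both directions. Of 30, 27 were tested, 3 fell (Klf2, Pik3ip1 and Tob1) and 1 rose (Cdkn2c), 11 had an unadjusted p under 0.05 (40.7%), and the median was -0.10, between -0.14 and 0.02 over the fits run. Tob1, which restrains cytokine transcription and division in resting T cells, ran from 17.2 to 27.5 CPM (median 26.0) in WT and from 13.4 to 20.2 CPM (median 15.9) in S1PR4-/- samples. WT sample 6 lay within the S1PR4-/- range. The log2 fold change of Tob1 was -0.62 (SE 0.13, FDR = 0.0401), beside -0.67 (SE 0.13, FDR = 0.0508) in non-TFH cells. Cdkn2c, the p18 inhibitor of CDK4 and CDK6 and itself high in dividing cells, ran from 89.8 to 133 CPM (median 115) in WT and from 143 to 194 CPM (median 149.6) in S1PR4-/- samples, without overlap, and its log2 fold change was 0.47 (SE 0.10, FDR = 0.0475). Pik3ip1, a brake on PI3K that also counted as a B lineage gene, fell (-0.83, FDR = 0.0303). Of 11 Polycomb PRC2 genes, Phf19, which brings the complex to marked chromatin, rose (0.66, FDR = 0.0268), 4 had an unadjusted p under 0.05 (36.4%) and the median was 0.14, between 0.10 and 0.16 over the fits run. Phf19 also counted as a B lineage gene by its level, and its groups did not overlap. Averaged over the PRC2 list, 6 of 6 S1PR4-/- samples had a log2 CPM above every WT sample.

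Tnfrsf25 (DR3), which costimulates T cells when it binds TL1A, ran from 38.1 to 70.8 CPM (median 57.7) in WT and from 19.3 to 38.7 CPM (median 26.9) in S1PR4-/- samples. Of the 12 samples, only WT sample 1 and S1PR4-/- sample 2 crossed into the range of the other group. Its log2 fold change was -0.99 (SE 0.19, FDR = 0.0278). Ltb, the lymphotoxin β chain that organizes lymphoid stroma, ran from 386 to 529 CPM (median 472) in WT and from 264 to 413 CPM (median 304) in S1PR4-/- samples. S1PR4-/- sample 2 lay above WT sample 6, and the log2 fold change was -0.54 (SE 0.10, FDR = 0.0274). At the measured B cell marker level, non-GC B cell RNA would carry Ltb at 11.8 CPM in WT and 2.57 CPM in S1PR4-/- samples, plasma cell RNA not included. Of 25 NF-kB subunits, inhibitors and targets, 2 fell and none rose, 11 had an unadjusted p under 0.05 (44.0%), 17 were negative and the median was -0.12, between -0.19 and -0.07 over the fits run. Traf1, an adaptor of TNF receptors and itself an NF-kB target, ran from 163 to 209.8 CPM (median 179) in WT and from 127 to 154 CPM (median 145) in S1PR4-/- samples, without overlap, and fell by 0.37 on the log2 scale (SE 0.07, FDR = 0.0274). Tnip1, which restrains NF-kB together with A20, also fell without overlap, with a log2 fold change of -0.24 (SE 0.05, FDR = 0.0324). Zc3h12a, the RNase Regnase-1 that degrades cytokine transcripts, fell by 0.61 (SE 0.13, FDR = 0.0470) on the same scale, without overlap.

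Ier5l had the lowest FDR among the genes that fell beyond the window and the B lineage. Ier5l (ENSMUSG00000089762.3, chr2:30471537-30474219), an immediate early gene related to IER5, ran from 4.63 to 6.82 CPM (median 5.69) in WT and from 1.39 to 3.03 CPM (median 2.32) in S1PR4-/- samples. Every S1PR4-/- sample lay below every WT sample, and the log2 fold change was -1.31 (SE 0.18, FDR = 0.00434). Of 31 immediate early genes 29 were tested, 3 fell and none rose, 7 had an unadjusted p under 0.05 (24.1%), and the list median was -0.02, between -0.15 and 0.03 over the fits run. The others were Fosl2, a member of the AP-1 family at low level, with a log2 fold change of -0.96 (SE 0.22, FDR = 0.0499), and Gadd45b, a stress gene inside the chromosome 10 window, with -0.30 (SE 0.07, FDR = 0.0449).

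Of 33 costimulatory and coinhibitory receptors, 2 fell and none rose, 24 had a negative log2 fold change, 5 had an unadjusted p under 0.05 (15.2%), with a median of -0.10, between -0.13 and -0.06 over the fits run. Beside Tnfrsf25 this was Cd96, a receptor for CD155, which ran from 151 to 201 CPM (median 169) in WT and from 103 to 157 CPM (median 119) in S1PR4-/- samples and had a log2 fold change of -0.48 (SE 0.10, FDR = 0.0445). S1PR4-/- sample 2 lay within the WT range of Cd96. Averaged over these receptors, the log2 CPM was below every WT sample in 5 of 6 S1PR4-/- samples. Of 32 cytokines and TNF family ligands 25 were tested, 5 had an unadjusted p under 0.05 (20.0%), and Ltb alone fell (list median -0.03, between -0.12 and 0.01 over the fits run). Of 33 survival and apoptosis genes 32 were tested, 5 had an unadjusted p under 0.05 (15.6%), and 1, Bcl2, the mitochondrial guard against apoptosis, fell (-0.51, FDR = 0.0496), with a list median of -0.04, between -0.06 and -0.00 over the fits run. Gpr132, a G protein-coupled receptor chosen after its values were seen, fell by 0.58 on the log2 scale (FDR = 0.0230).

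**Figure D4:**
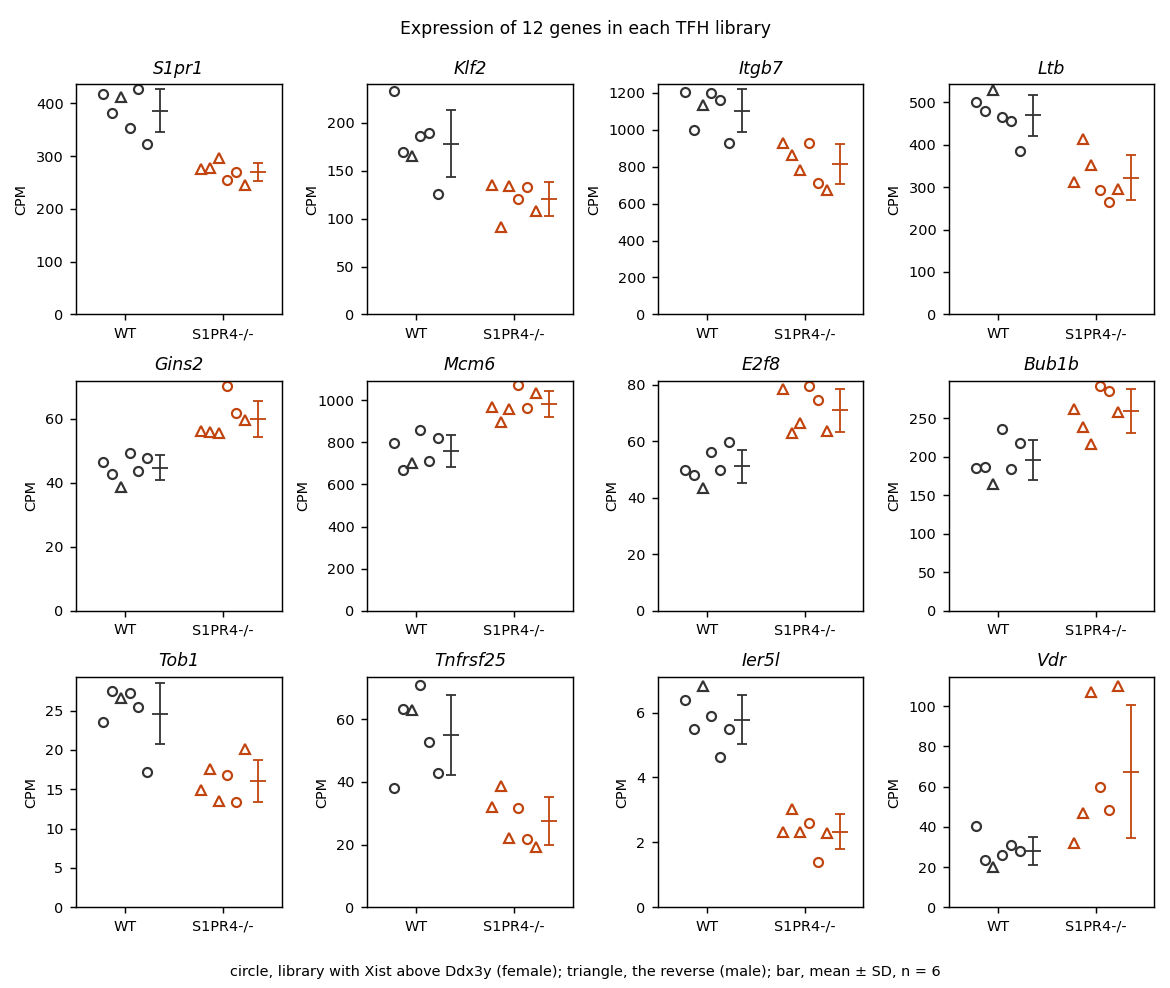
Expression in CPM of 12 genes in each TFH library, with the mean and SD of 6 samples per genotype as bars. S1pr1, Itgb7 and Ier5l are lower and Gins2, Mcm6 and E2f8 higher in every S1PR4-/- sample than in every WT sample, while Klf2, Ltb, Bub1b, Tob1, Tnfrsf25 and Vdr overlap.

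In the PI3K, AKT, mTOR and insulin pathway 41 genes were listed, 40 were tested, 3 fell and none rose. Of these 40 genes, 32 had a negative log2 fold change, 16 had an unadjusted p under 0.05 (40.0%), and the median was -0.13, between -0.18 and -0.11 over the fits run. The 3 were Sesn1, which restrains mTORC1 when amino acids are scarce (-0.50, FDR = 0.0274), Irs2, an insulin receptor substrate (-1.21, FDR = 0.0289), and Pik3ip1. All 3 also counted as B lineage genes by their level in B cells. The mean log2 CPM of the pathway lay below every WT sample in 6 of 6 S1PR4-/- samples. This mean includes the 3 B lineage genes, and a mean without them was not taken. Of 35 MAPK genes tested among 37, Rasa3, a GTPase-activating protein for RAS and RAP, fell and none rose, with 7 at an unadjusted p under 0.05 (20.0%; median 0.01, between -0.02 and 0.04 over the fits run). Rasa3 ran from 302 to 401 CPM (median 364) in WT and from 243 to 321 CPM (median 265) in S1PR4-/- samples, its log2 fold change was -0.39 (SE 0.08, FDR = 0.0303), and S1PR4-/- sample 3 alone lay within the WT range. Of 25 genes that couple S1P receptors to G proteins or traffic them, 4 had an unadjusted p under 0.05 (16.0%) and 1 fell, Rgs2, a regulator of Gαq signals and a B lineage gene by its level (-0.59, FDR = 0.0179), and the median was -0.05, between -0.08 and 0.02 over the fits run.

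In the proximal signal of the T cell receptor no gene passed in edgeR without covariates, and 3 passed with sex as a covariate. Of 47 genes tested among 48, 13 had an unadjusted p under 0.05 (27.7% beside 19.2% of all tested genes), DESeq2 put 10 past its FDR and limma-voom 0, and the median was -0.07, between -0.11 and -0.04 over the fits run. The 3 with the lowest p were the kinases Tec and Txk and the adaptor Grap2, with log2 fold changes of -0.45 (FDR = 0.0525), -0.38 (FDR = 0.0525) and -0.33 (FDR = 0.0692). Tec counted as B lineage. Of 39 genes of JAK-STAT signaling and common cytokine receptors, 0 passed in edgeR, 10 had an unadjusted p under 0.05 (25.6%), 2 passed in DESeq2, 3 with sex as a covariate and 0 in limma-voom, with a median of -0.08, between -0.26 and -0.06 over the fits run. Il4ra, the IL-4 receptor chain and a B lineage gene by its level, had a log2 fold change of -0.37 (FDR = 0.0537), Il7r, the IL-7 receptor of resting T cells, -0.78 (FDR = 0.0714), and Ifnar1, the interferon α receptor chain, -0.28 (FDR = 0.114).

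The genes that define TFH cells did not pass the test. Of 30, 0 passed in edgeR, 5 had an unadjusted p under 0.05 (16.7% beside 19.2% of all tested genes), 1 passed in DESeq2 and 0 in limma-voom, with 16 positive and 14 negative values and a median of 0.05. That median was between -0.06 and 0.29 over the fits run. Il21, the cytokine by which TFH cells act on GC B cells, ran from 108 to 162 CPM (median 137) in WT and from 121 to 314 CPM (median 231) in S1PR4-/- samples. Of the S1PR4-/- samples only sample 5 lay within the WT range, and the log2 fold change was 0.70 (SE 0.18, FDR = 0.0599). Batf, an AP-1 factor that TFH cells need, and Angptl2, a secreted protein, had log2 fold changes of -0.37 (FDR = 0.142) and 0.28 (FDR = 0.153). Bcl6 ran from 100.2 to 143 CPM (median 123) in WT and from 93.4 to 191 CPM (median 105) in S1PR4-/- samples, with the highest values in S1PR4-/- samples 3 and 6, and its log2 fold change was 0.07 (SE 0.17, FDR = 0.855). Cxcr5, the receptor that leads to the follicle, ran from 836 to 1063 CPM (median 956) in WT and from 724 to 1087 CPM (median 1011) in S1PR4-/- samples, with a log2 fold change of 0.02 (SE 0.09, FDR = 0.915). Pdcd1, which encodes PD-1, ran from 579.6 to 796 CPM (median 652) in WT and from 541 to 963 CPM (median 682) in S1PR4-/- samples, with a log2 fold change of 0.11 (SE 0.12, FDR = 0.670). In all 3 the groups overlapped.

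The remaining TFH genes named by the study did not pass either. Cxcr4, Irf4, Tcf7 and Lef1 had log2 fold changes of -0.23, -0.15, -0.01 and -0.12, and Maf and Ascl2 of 0.16 and 0.37, with FDR values from 0.333 (Cxcr4) to 0.954 (Tcf7). Of 23 factors of other helper T lineages 0 passed in edgeR, 6 had an unadjusted p under 0.05 (26.1%), and 2 passed in DESeq2, 1 with sex as a covariate and 0 in limma-voom (median -0.08, between -0.47 and -0.03 over the fits run). Rora had -0.37 (FDR = 0.0656) and Ikzf3 0.50 (FDR = 0.0966). Of 20 regulatory T cell genes tested among 21, 0 passed in edgeR, DESeq2 or limma-voom and 2 had an unadjusted p under 0.05 (10.0%), with a median of -0.02 that ran from -0.60 to 0.12 over the fits run. Nrp1, Ikzf2 and Itgb8 led them, with log2 fold changes of 0.26, 0.24 and 0.52 (FDR = 0.139, 0.254 and 0.331).

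Growth and metabolic lists had no gene past the threshold in the edgeR fit without covariates. Of 48 genes of the MYC network and ribosome biogenesis, 40 had a positive log2 fold change, 0 passed in edgeR, 14 had an unadjusted p under 0.05 (29.2%), 2 passed in DESeq2, 2 with sex as a covariate and 0 in limma-voom (median 0.11, between 0.03 and 0.17 over the fits run). Dkc1, the pseudouridine synthase of small nucleolar RNPs, had 0.33, FDR = 0.0692, and the MYC antagonists Mxd1 and Mxi1 had -0.74, FDR = 0.0895, and -0.23, FDR = 0.119. For 33 genes of glycolysis and hypoxia the edgeR count was 0, with 4 at an unadjusted p under 0.05 (12.1%) and 0 in DESeq2 and limma-voom (median -0.02, between -0.13 and 0.04 over the fits run). Their lowest p were those of Vegfa (-1.91, FDR = 0.163), Bnip3l (-0.17, FDR = 0.187) and Pdk1 (-0.18, FDR = 0.199).

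For cholesterol synthesis and uptake, 30 of 31 genes were tested, 0 passed in edgeR, DESeq2 or limma-voom, and 2 had an unadjusted p under 0.05 (6.67%; median 0.03, between 0.01 and 0.12 over the fits run). The lowest p were those of Srebf2 (-0.22, FDR = 0.174), Acat2 (0.23, FDR = 0.194) and the B lineage gene Scd1 (-2.22, FDR = 0.276). For amino acid transporters, 16 of 17 were tested, 0 passed in the same tools and 2 had an unadjusted p under 0.05 (12.5%; median 0.06, between 0.02 and 0.14 over the fits run). Slc36a1 had -0.59, FDR = 0.177, Slc36a4 0.28, FDR = 0.203 and Slc6a9 1.34, FDR = 0.309.

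Interferon-stimulated genes had negative values in 40 of 41 tested members (42 listed), with a median of -0.26, between -0.78 and -0.13 over the fits run. None passed in edgeR, DESeq2 or limma-voom, and 0 had an unadjusted p under 0.05. The mean log2 CPM of the list ran from 5.60 to 6.66 in WT and from 4.66 to 6.66 in S1PR4-/- samples, so the spread within each genotype was larger than the difference between them. Slfn5 had a log2 fold change of -0.46, FDR = 0.304, Oas1a of -0.55, FDR = 0.331, and Ifit1bl1 of -0.80, FDR = 0.351.

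Of the 31 genes past both thresholds, 26 had a mean of at least 1 CPM. Gpc1, a cell surface heparan sulfate proteoglycan, ran from 4.85 to 7.31 CPM (median 5.84) in WT and from 8.31 to 11.0 CPM (median 9.22) in S1PR4-/- samples, without overlap, and its log2 fold change was 0.66 (SE 0.12, FDR = 0.0243). Fignl1, an ATPase of homologous recombination, rose as well (0.62, FDR = 0.0382). Vdr, the nuclear receptor of vitamin D, ran from 19.8 to 40.1 CPM (median 27.0) in WT and from 32.1 to 109.9 CPM (median 54.0) in S1PR4-/- samples. S1PR4-/- samples 3 and 6, at 107 and 109.9 CPM, were the highest, and S1PR4-/- sample 1 lay within the WT range. The log2 fold change of Vdr was 1.26 (SE 0.28, FDR = 0.0470). Lrfn4, an adhesion molecule, and the RNA gene D430020J02Rik also rose (0.92, FDR = 0.0449, and 0.63, FDR = 0.0303). Gm26527 (0.73, FDR = 0.0475) overlaps Arsb on the opposite strand, so its value is uncertain. Gm9855 and Tdg-ps, processed copies of Tdg, had log2 fold changes of 6.16 and 7.79. Tdg itself, a DNA glycosylase in the chromosome 10 window, was lower, and since reads can be split among near-identical copies, these values are uncertain.

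Cpm, the membrane carboxypeptidase M, had the lowest FDR after Ier5l among the lower genes past both thresholds beyond the chromosome 10 window and the B lineage. It also lies on chromosome 10, outside that window, and whether it is linked to the changed allele was not tested. Cpm ran from 71.0 to 78.9 CPM (median 74.7) in WT and from 37.3 to 60.9 CPM (median 49.8) in S1PR4-/- samples, without overlap, and its log2 fold change was -0.63 (SE 0.10, FDR = 0.0152). Slc4a7, a bicarbonate transporter, fell by 0.60 on the log2 scale, Rab5c, a GTPase of early endosomes, by 0.65, and Vapb, an anchor of the endoplasmic reticulum, by 0.72. Limk1, a kinase of cofilin, fell by 0.71, Grb7, an adaptor of receptor kinases, by 0.82, Gpnmb, a membrane glycoprotein, by 1.08, and Aldh3a1, an aldehyde dehydrogenase, by 1.25. The FDR of these 7 genes was between 0.0401 (Slc4a7) and 0.0483 (Aldh3a1). The mitochondrial ribosomal RNA mt-Rnr2 ran from 218 to 305 CPM (median 277) in WT and from 127 to 226 CPM (median 158) in S1PR4-/- samples, with S1PR4-/- sample 4 within the WT range and a log2 fold change of -0.66 (SE 0.14, FDR = 0.0401). The labels name polyA RNA and the methods a capture of polyA RNA, and the kit named also removes ribosomal RNA, so what the level of this RNA reflects is uncertain. Gm11346 (-0.68, FDR = 0.0250) overlaps Ripor2 on the opposite strand and is uncertain.

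The same genotypes were compared in non-TFH CD4+ cells of the draining lymph nodes, sorted as PD1- and CXCR5-, with 6 WT and 6 S1PR4-/- libraries. There 31 of 13197 genes (0.235%) passed an FDR under 0.05. The test of whether the genotype difference itself differed between TFH and non-TFH cells gave 2 of 14401 genes (0.0139%), Relb and Nfkbiz, and 1325 at an unadjusted p under 0.05. Relb, an NF-kB subunit, had a log2 fold change of -0.20 in TFH cells (FDR = 0.130) and 0.42 in non-TFH cells (FDR = 0.0160). The difference was -0.62 (SE 0.10, FDR = 0.0174). Nfkbiz, an atypical inhibitor of the same family, had -0.44 (FDR = 0.0989) and 0.57 (FDR = 0.0160), a difference of -1.01 (SE 0.18, FDR = 0.0453). Each of these 2 genes passed in non-TFH cells and not in TFH cells. Both were named by this test and not by the rule for TFH cells. In edgeR the count of 2 became 0 without TFH S1PR4-/- sample 4, 5 or 6, TFH WT sample 2, non-TFH S1PR4-/- sample 1, 3 or 6 or non-TFH WT sample 1 or 4, and 6 without TFH S1PR4-/- sample 2, TFH WT sample 6 or non-TFH WT sample 6. It was 1 without TFH WT sample 3 or 5, non-TFH S1PR4-/- sample 2, 4 or 5 or non-TFH WT sample 5, and 1 by limma-voom. With the sample number as a block it was 41, with Relb and Nfkbiz both at FDR = 0.0251. TFH and non-TFH samples of 1 number were of the same sex in 6 of 6 for each genotype. The labels do not say whether 1 number marks 1 mouse.

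The other named genes did not pass this test of the difference in this fit. With the sample number as a block, Itgb7, Fosl2, Tnip1, Zc3h12a, Il4ra and Mxd1 did. The values below are those without the block. S1pr1 had a log2 fold change of -0.20 (SE 0.05, FDR = 0.145) in non-TFH cells, and the difference from TFH cells was -0.31 (SE 0.09, FDR = 0.237). Itgb7 had 0.05 (SE 0.06, FDR = 0.803) there, with a difference of -0.49 (SE 0.12, FDR = 0.129). Tnfrsf25 had -0.00 in non-TFH cells and -0.99 in TFH cells, a difference with an FDR of 0.0758. Zc3h12a, Tnip1 and Fosl2 had values of 0.33, 0.11 and 0.36 in non-TFH cells, opposite in sign to those in TFH cells, and the same FDR of 0.0758 for the difference. Sesn1 fell in non-TFH cells too (-0.56, FDR = 0.0258).

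**Figure D5:**
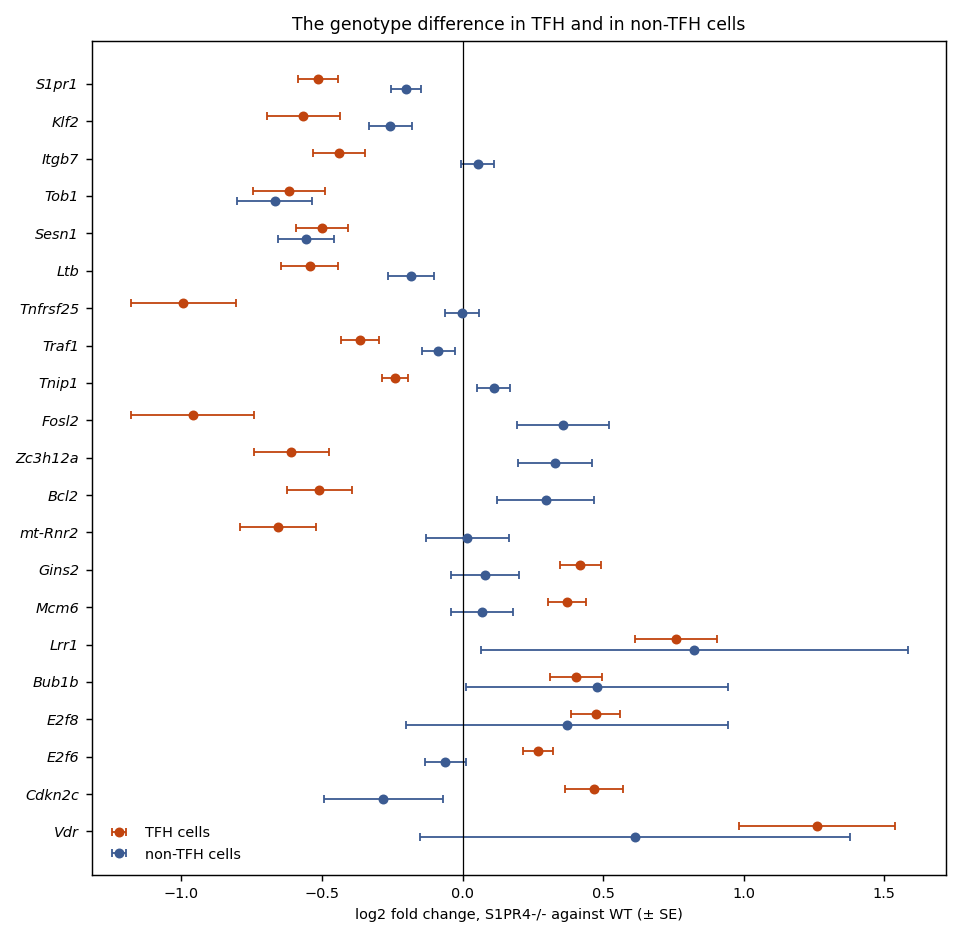
Log2 fold change and SE of 21 named genes for S1PR4-/- against WT in TFH cells and in non-TFH cells, 6 samples per group. Tob1 and Sesn1 lie at similar values in both populations. Tnfrsf25, Zc3h12a, Fosl2 and Tnip1 lie apart, with an FDR of 0.0758 for the difference in the fit without a block.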

How the data were processed

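The authors deposited a table of RSEM expected counts for 55450 genes, with reads trimmed by cutadapt 2.10, aligned to mm10 by STAR 2.5.3, checked with Picard and counted by RSEM 1.3.0. Of its values 8.83% were not whole numbers, and they were rounded. Of the symbols, 55423 were found in GENCODE M21, which gave positions, 27 were not, and 111 repeated an earlier symbol. The study names release M30 for its alignment, and whether the table was made with it is not settled here. Whether counting used the strand is not stated, so genes that overlap another on the opposite strand are named as uncertain where they carry a result. Mitochondrial genes with nuclear copies were not separated further.

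The 6 S1PR4-/- and 6 WT TFH libraries were compared in edgeR 4.0.16 (filterByExpr, TMM, quasi-likelihood F test), with an FDR (Benjamini-Hochberg) under 0.05, and with a fold change over 1.5 for the genes counted as past both thresholds. SE is the log2 fold change divided by the square root of F. CPM values use TMM library sizes, and log2 CPM a prior count of 2. Genes within 10 Mb on each side of S1pr4 were the chromosome 10 window. A B lineage gene was an immunoglobulin gene, a listed B or plasma cell marker, or a gene whose mean CPM in WT GC B or WT non-GC B cells was at least 4 times its mean over the 12 TFH libraries. The level that B cell RNA would carry is the mean in WT non-GC B cells times the share of B cell marker RNA in each group. It does not cover plasma cells, which were not a group of the series. Sex was read from Xist and Ddx3y. A second model over TFH and non-TFH libraries tested whether the genotype difference differed between them. The WT TFH libraries are shared by every comparison that uses them.

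Genes were named by rule: S1pr4, then of the genes past both thresholds beyond the window and the B lineage with a mean of at least 1 CPM up to 15 higher and 15 lower by lowest p, then in each list all members with an FDR under 0.05 or, where there were none, the 3 with the lowest p, and of 9 TFH genes named by the study those in the table. Genes with near-identical copies are named as uncertain. The results of some genes are not reported here. The 25 gene lists, their members and 10 marker lists were chosen with earlier results of these data known. Lists of lysosomal, DNA repair, mitochondrially encoded and ribosomal protein genes were added after the data were seen. Lists are described by counts and medians, without a test of the list.

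Alternatives were DESeq2 1.42.0 and limma-voom 3.58.1, RLE normalization, no filter or a mean CPM of at least 1, sex or the B and plasma cell marker levels as covariates, a replicate block, larger joint fits, other B cell levels (2 and 10 times), a 20 Mb window and each library left out. Leaving out libraries with a B cell marker level above 3 and a term for numbers 1 to 3 against 4 to 6 were added after the data were seen. The pipeline was run on simulated data, where edgeR recovered 200 of 200 changed genes with 14 false calls. For the difference between cell types it recovered 198 of 200. The fold changes used there are not stated here. How these counts bear on differences as small as those in the TFH libraries was not tested. Start windows came from RefSeq on GRCm38.p6 and were searched for 7 motifs. Software was R 4.3.3, Python 3.11.15, pandas 2.3.3, numpy 2.4.6 and matplotlib 3.10.9.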

Additional observations from a re-analysis of the deposited data

Results flagged for a closer look

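A sample lay far from the other 5 of its group in 10 of 210 groups of 6 examined by Dixon's rule. This is close to the share of about 1 in 20 groups that chance alone gives. Among the genes, the highest S1PR4-/- sample stood apart for Scd1 (11.3 CPM, next 0.693), Rasa3 (321.0 CPM, next 271), Pik3ip1 (32.4 CPM, next 22.3) and Irs2 (3.51 CPM, next 2.55). The highest WT sample stood apart for Maf (121.6 CPM, next 96.6) and Txk (119 CPM, next 105.6), and the lowest WT sample for Grap2 (19.9 CPM, next 26.7). Markers of macrophages, monocytes and neutrophils summed to 583 CPM in S1PR4-/- sample 6, with 156 CPM in the next sample. Markers of red cells and platelets reached 7.23 CPM in the highest WT sample (next 1.68) and 0.396 CPM in the highest S1PR4-/- sample (next 0.101). Whether these come from chance or from a technical or a biological source was not tested.

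In the test of the genotype difference between TFH and non-TFH cells, Relb (-0.62) and Nfkbiz (-1.01) differed on the log2 scale.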

How the results depend on the processing

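No sign turned in 1344 pairs of 1 of the 56 named genes past an FDR of 0.05 and 1 alternative, and 763 pairs stayed past it. These genes were chosen by their FDR in the same libraries, so the lack of turned signs does not test their direction. Over all named genes 15 of 2277 pairs turned, all in genes that had not passed. Of the 141 genes beyond the chromosome 10 window and the B lineage, 139 passed in DESeq2, 122 in limma-voom, 122 with RLE, 127 with sex, 85 with non-TFH in the same fit, 43 with all 8 groups, 136 at a mean CPM of at least 1 and 87 with no filter. The counts of genes past both thresholds, of those beyond the window and the B lineage, and of those beyond by FDR alone were 67, 31 and 141. They were 8, 4 and 4 with the marker levels as covariates, 191, 113 and 856 in DESeq2, 157, 104 and 605 with sex, 113, 49 and 205 with TFH and non-TFH in 1 fit, and 153, 26 and 89 with all 8 groups. Without a filter they were 85, 28 and 93. With the libraries of highest B cell marker level left out they were 13, 2 and 2, and with the term for numbers 1 to 3 against 4 to 6 they were 126, 65 and 433, both chosen after seeing the data. With each library left out in turn they ran from 15 to 117, from 4 to 53 and from 8 to 286. The cause of these differences was not tested.

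Whether the same number pairs WT and S1PR4-/- TFH samples is not stated. Of these samples, 1 of 6 correlated best with its own number (r -0.115 to 0.144), which does not decide it. As a block the number gave 46, 16 and 93. TFH and non-TFH samples of 1 number were of the same sex in 6 of 6 for each genotype and correlated best with their own number in 3 of 6 (WT, r 0.0702 to 0.325) and 6 of 6 (S1PR4-/-, r 0.143 to 0.239). For the difference between TFH and non-TFH cells, the block gave 41 genes in place of 2, among them the named Itgb7, Fosl2, Tnip1, Zc3h12a, Il4ra and Mxd1, limma-voom 1, and leaving out each of 24 libraries from 0 to 6.

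Signs turned for Itgb8 (-0.00646) without the libraries of highest B cell marker level, and for Tcf7 (0.00776) in the same fit. With sex as a covariate Bcl6 had -0.0875 and Cxcr5 -0.0783, and with the marker levels as covariates Cxcr4 had 0.28 and Irf4 0.0230. With 1 library left out, Bcl6 ran from -0.0780 to 0.14, Cxcr5 from -0.0157 to 0.0896 and Tcf7 from -0.0545 to 0.0249.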

Other observations

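Lists added after the data were seen describe further groups of genes. DNA repair by recombination and crosslink repair had 48 members tested, of which 12 rose, none fell and 45 were positive. An unadjusted p under 0.05 was reached by 34 (70.8%, beside 19.2% of all tested genes). The median log2 fold change was 0.32, between 0.24 and 0.41 over the fits run, beside 0.12 in non-TFH cells. Polq, the polymerase of end joining, rose by 0.53, FDR = 0.0230, Brip1, a helicase of crosslink repair, by 0.55, FDR = 0.0350, and Nbn, a sensor of double-strand breaks, by 0.29, FDR = 0.0274. Recql4 and Ticrr, which act at replication origins, rose by 0.55, FDR = 0.0311, and 0.52, FDR = 0.0274.

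Lysosomal proteins fell in 6 of 52 members tested and rose in none, with 39 negative. Of the 52, 23 had an unadjusted p under 0.05 (44.2%, beside 19.2% of all tested genes). The median was -0.15, between -0.18 and -0.11 over the fits run. Mcoln2, the lowest of the 6 (-0.99, FDR = 0.0321), counted as B lineage by its level. Glb1, an enzyme that breaks down sugar chains, had a log2 fold change of -0.29 (FDR = 0.0274). Npc2, which moves cholesterol, and Scarb2, a membrane receptor, had -0.35 and -0.28 (FDR = 0.0476 and 0.0477).

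Mitochondrially encoded genes were negative in 16 of 16 tested, with 3 past the threshold, among them mt-Rnr1 (-0.57, FDR = 0.0401) and mt-Co1 (-0.58, FDR = 0.0350). Of the 16, 12 had an unadjusted p under 0.05 (75%, beside 19.2% of all tested genes). The median was -0.52, between -0.61 and -0.40 over the fits run, beside -0.01 in non-TFH cells. The level of mt-Rnr1 carries the same uncertainty of RNA selection as that of mt-Rnr2. The mitochondrial genes took 0.430% to 0.563% of counts in WT and 0.256% to 0.465% in S1PR4-/- samples, with overlap. Ribosomal protein genes were negative in 67 of 76 with a median of -0.11, between -0.17 and -0.05 over the fits run, beside 0.04 in non-TFH cells.

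S1PR4-/- samples 3 and 6 were the highest of their group for Il21 (314 and 259 CPM), Pdcd1 (962.5 and 840.4 CPM) and Bcl6 (190.9 and 166.8 CPM). They were the lowest of the 6 for the mean log2 CPM of regulatory T cell genes, at 4.86 and 4.87.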
